A study of Mus musculus with 14 samples.

Results

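Tumours called TMP were compared with tumours called TM, both grown under the skin of mice and labelled as gastric tumours. The comparison rests on 6 of the 14 samples of the series, 3 of each group, taken by the tumour name and the site in their titles. About 1 cm3 of each tumour was collected 2 months after the transplant, and its polyA RNA was sequenced. The labels do not spell out the letters of TM and TMP, and give no allele, strain, age, sex or host, so the groups are called by those names here and the change that the letter P stands for is not stated. The labels do not say that the 3 replicates of a group came from separate mice or transplants. The p-values then cover only the spread between these samples, which may be technical.

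A tumour of this kind is a mixture of transplanted epithelial cells with fibroblasts, vessels, macrophages, neutrophils and lymphocytes of the host. In cells that enter the division cycle, E2F factors, once released from proteins of the retinoblastoma family, switch on genes of DNA replication, and complexes that hold B-Myb and FoxM1 then switch on genes of mitosis. Interferons act through STAT and IRF factors on a shared set of antiviral genes, in tumour cells and host cells alike. In bulk RNA of such a mixture, fewer cells of a type and less RNA per cell cannot be told apart.

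Levels are given as CPM, counts per 1000000 after TMM scaling of the library totals, in the order replicate 1, 2 and 3. Differences are log2 fold changes of TMP over TM with their standard error (SE), from edgeR's quasi-likelihood test over the 9 subcutaneous libraries, the third group of which is called TMPC, with Benjamini-Hochberg adjustment. Values in parentheses after a gene, and after "rose by", are such log2 fold changes ± SE. "Rose" and "fell" stand for TMP against TM at an adjusted p under 0.05. Total counts ranged from 16584781 to 21044009 per library, where 3 counts make between 0.143 and 0.181 CPM before that scaling. Across genes, the pairs of TMP libraries correlated with r between 0.973 and 0.981 and TM replicates 1 and 3 with r = 0.985. TM replicate 2 stood apart, with r = 0.789 and 0.779 to the other TM libraries. Its summed level of 30 keratin genes was 279 CPM, against 6298 and 8745 CPM in TM replicates 1 and 3 and 8797 to 11457 CPM in TMP. The summed level of 24 adipocyte, muscle and nerve genes was 7616 CPM in TM replicate 2 and 67.5 to 493 CPM in the other 5 libraries, and that of 25 T and NK cell genes was 849 CPM against 6.78 to 61.3 CPM. The Y-linked genes Ddx3y, Eif2s3y, Kdm5d and Uty had 0 counts in TM replicate 2 and were counted in the other 5, and Xist, the RNA of the inactive X chromosome, stood at 297, 1490.4 and 189.9 CPM in TM and 1.11, 0.27 and 1.80 CPM in TMP. TM replicates 1 and 3 thus held both Xist and Y-linked transcripts. Each result below is therefore given with and without TM replicate 2 wherever that library changed a call, turned a direction or moved a value by more than 1.5 times. Xist set the groups apart too, with a log2 fold change of -9.26 (edgeR adjusted p = 0.015). Without TMP replicate 1, 2 or 3 it did not pass (edgeR adjusted p between 0.0542 and 0.0669). Whether the sex of tumour or host cells differed between the groups was not tested. Such a difference could not be told apart from the group here.

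The labelled tissue was checked against its markers. TM replicates 1 and 3 and all TMP libraries held epithelial transcripts such as Krt8, at 739, 49.6 and 817 CPM in TM and 1145, 759 and 938 CPM in TMP. The foregut factor Sox2 stood at 179.6, 0 and 242 CPM in TM and 289, 253 and 334 CPM in TMP. Squamous keratins, which the lining of the mouse forestomach holds, were abundant in the same 5 libraries. Krt13 stood at 191, 0 and 369.7 CPM in TM and 1069, 768 and 1006 CPM in TMP. Krt14, which skin shares, stood at 457, 4.15 and 775 CPM in TM and 1644, 1643 and 1414 CPM in TMP. Some products that define the glandular stomach were low or absent in both groups. Gast, which encodes gastrin, had 0 counts in all 6 libraries, the pit cell product Gkn1 reached at most 0.454 CPM, and the chief cell product Pgc reached at most 0.156 CPM. Of 29 genes of gastric cell products, 13 had enough counts to be tested. The summed level of the 29 was not low throughout, at 762, 174 and 711 CPM in TM and 78.5, 67.3 and 138 CPM in TMP. The intestinal factor Cdx2 and the antral factor Pdx1 had 0 counts in every library.

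Of 15277 genes tested, 2188 (14.3%) rose and 2051 (13.4%) fell. Without TM replicate 2, 2514 genes (16%) were higher and 2371 (15.1%) lower among 15668 tested. Both fits shared 3614 calls, all of the same direction, which were 85.3% of the first set and 74% of the second. The falls were larger than the rises, with a median log2 fold change of -1.97 among genes that fell and 1.00 among genes that rose, beside -0.07 over all genes tested. Changes of more than 4-fold numbered 294 rises and 1011 falls, and 332 and 997 without TM replicate 2. In 49.7% of the genes tested the 3 TMP levels all lay above or all below the 3 TM levels. Leaving out a TMP library shortened the list to 1550 genes without TMP replicate 1, 2132 without TMP replicate 2 and 1870 without TMP replicate 3. Of these, 1067, 1371 and 1259 were higher and 483, 761 and 611 lower in TMP. The list counts given below for these fits stand beside these smaller totals. A core of 1376 genes (9.01%) passed the test in all 12 alternative settings, of which 961 rose (6.29% of the genes tested) and 415 fell (2.72%).

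**Figure D1:**
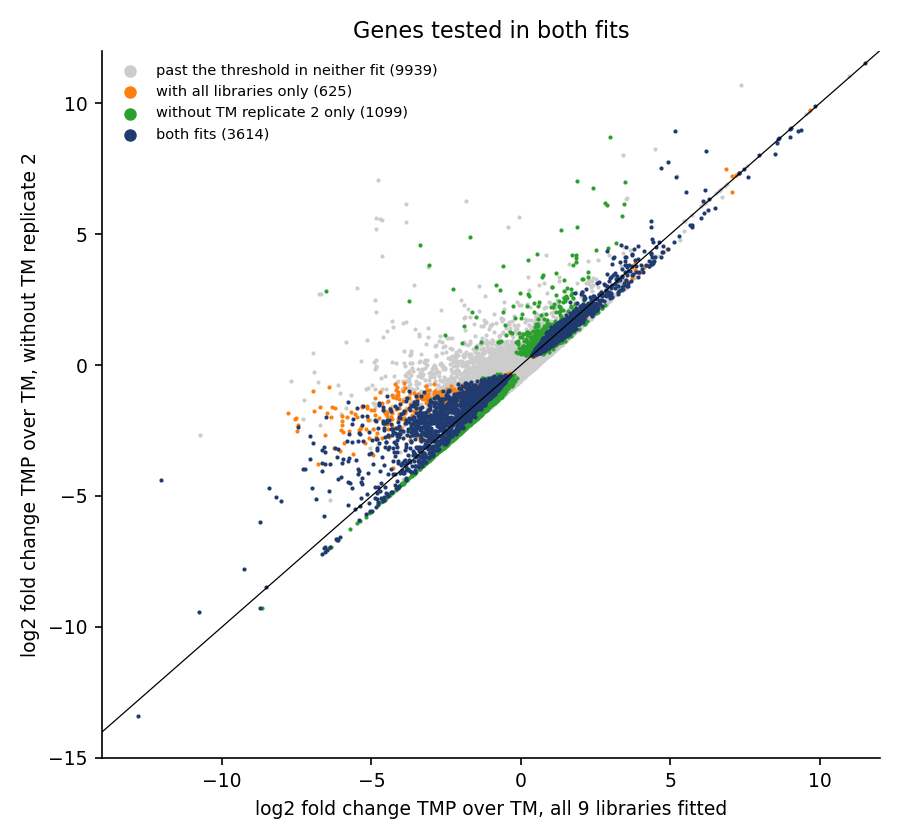
Each point is a gene tested in both fits, with the log2 fold change of TMP over TM from all 9 libraries on the x axis and without TM replicate 2 on the y axis. Points above the diagonal on the left are genes whose fall was smaller once TM replicate 2 was left out, while the rises lie close to the diagonal.

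Uchl1, a neuronal ubiquitin hydrolase at chr5:66676091-66687234 of mm10, was among the 12 largest rises and stood at 1.09, 0.358 and 1.27 CPM in TM and 24.1, 47.5 and 36.3 CPM in TMP. The gene was thus low in all 3 TM libraries and far higher in all 3 TMP libraries, and the log2 fold change was 5.27 ± 0.59 (SE, edgeR adjusted p = 0.00196). Map7d2, a microtubule protein of neurons, stood at 0.156, 0.358 and 0.136 CPM in TM and 18.1, 15.3 and 12.9 CPM in TMP and rose by 6.17 ± 0.72 (SE, edgeR adjusted p = 0.00218). The RNA-binding protein gene Elavl2, the Rac activator gene Dock3, the forkhead gene Foxo6 and the glycan transferase gene B3gat1 were also among these 12, with log2 fold changes of 4.36, 4.62, 3.96 and 6.49. Without 1 library, the value was 5.51 without TM replicate 2 for Elavl2, and 8.59 without TM replicate 3 and 5.00 without TMP replicate 2 for B3gat1. The 8.59 is uncertain in size, since B3gat1 was at 0.0519 and 0 CPM in TM replicates 1 and 2, under 3 counts. Acan, the core protein of cartilage matrix, was at 0.0519, 0 and 0.136 CPM in TM and 36.1, 14.7 and 102 CPM in TMP, so its 3 TMP values spanned a wide range, all far above TM.

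Igfbp2, Grb10 and Irs4 were also among the 12 largest rises, and were picked out after their values were seen. Igfbp2, a secreted carrier of IGF at chr1:72824503-72852474, stood at 8.15, 2.22 and 11.9 CPM in TM and 229.8, 282 and 263 CPM in TMP. Igfbp2 rose by 5.11 ± 0.73 (SE, edgeR adjusted p = 0.00366). Grb10, an imprinted adaptor that dampens insulin and IGF receptors, stood at 31.2, 55.4 and 41.04 CPM in TM and 637, 544 and 1039.8 CPM in TMP. Grb10 rose by 4.12 ± 0.49 (SE, edgeR adjusted p = 0.00223). Irs4, a docking protein of the same receptors, stood at 0.0519, 0 and 0.0908 CPM in TM and 6.49, 24.3 and 3.32 CPM in TMP, with TMP replicate 2 well above the other 2. In both Acan and Irs4 the TM levels were at or under 3 counts per library, so no fold is given. The growth factor Igf2 itself, expressed in embryos and in many tumours, stood at 1.92, 2.79 and 9.49 CPM in TM and 70.9, 19.6 and 211 CPM in TMP. Igf2 rose by 4.40 ± 1.02 (SE, edgeR adjusted p = 0.0181). Without TM replicate 3 it was 5.43, and without TMP replicate 3 it was 3.26 and did not pass (edgeR adjusted p = 0.0537). The levels of Grb10 and Igf2 were both highest in TMP replicate 3. The groups did not overlap for Igf2, as in 49.7% of the genes tested. For Igfbp2, Grb10 and Irs4 the rule for the largest changes required this. Of 37 genes of the list of Fgf, Met, Igf and other receptor kinases 2 rose and none fell, and without TM replicate 2 these were 3 and 2. Of 21 oncofetal and imprinted genes tested, Grb10 included, 4 rose and 1 fell, and the rises numbered between 1 and 4 when single libraries were left out. Over all genes tested 14.3% rose and 13.4% fell.

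Genes on chromosome 14 were lower in TMP as a block. Of 513 genes tested there, 147 fell (28.7%) and 16 rose (3.12%), with a median log2 fold change of -0.60, or -0.51 without TM replicate 2. On the other autosomes the medians lay between -0.21 on chromosome 12 and 0.20 on chromosome 3. To see this in each library, the median over expressed genes of log2(CPM + 1) was taken relative to the mean of the 6 libraries. For chromosome 14 it was 0.26, 0.34 and 0.25 in TM replicates 1, 2 and 3 and -0.26, -0.38 and -0.19 in TMP replicates 1, 2 and 3, so the groups did not overlap and TM replicate 2 stood with the other TM libraries. The difference was -0.56, with an exact two-sided permutation p of 0.1, the smallest that 3 against 3 allows. Chromosomes 1, 2, 3, 8, 12 and 18 gave the same p, with differences between -0.13 on chromosome 12 and 0.27 on chromosome 3, so this p does not set chromosome 14 apart, which was picked as the largest difference. The shift ran along the chromosome: in 10-Mb windows, a view chosen after the shift had been seen, 12 of 13 window medians were below 0, and the exception between 90 and 100 Mb held 6 genes. The groups did not overlap on chromosome 3 either. There the TMP libraries stood at 0.08, 0.02 and 0.33 and the TM libraries at -0.30, -0.10 and 0.01, so single libraries of 1 group differed as much as the groups did.

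**Figure D2:**
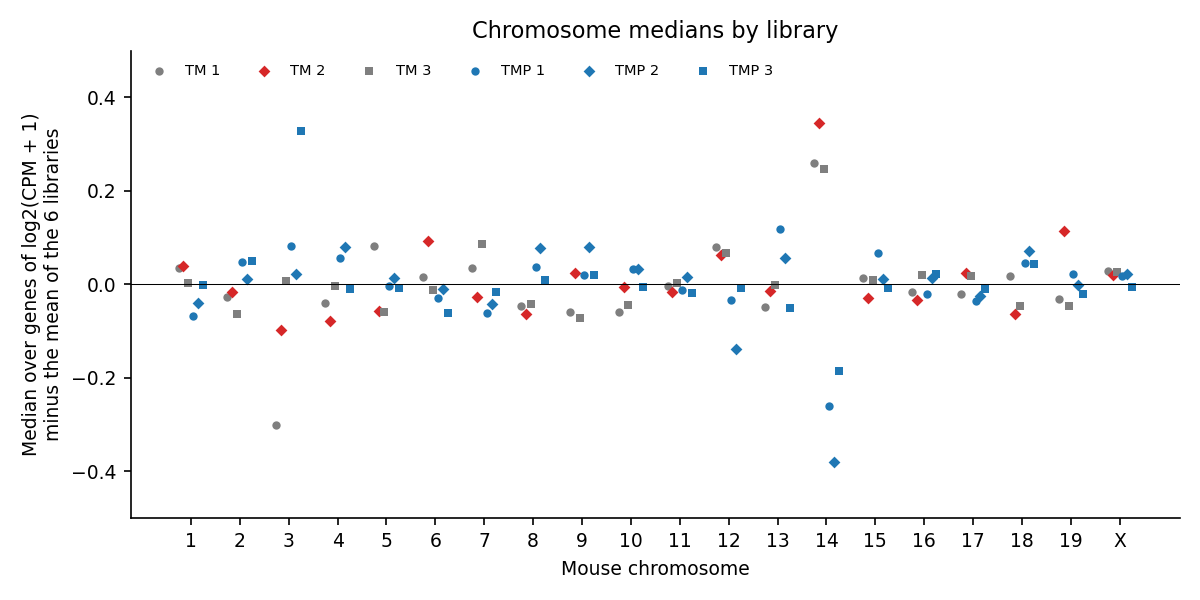
For each chromosome, points give the median over expressed genes of log2(CPM + 1) in each library minus the mean of the 6 libraries (y axis), for the 3 TM and 3 TMP libraries. On chromosome 14 the 3 TM libraries lie between 0.25 and 0.34 and the 3 TMP libraries between -0.38 and -0.19.

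Among the genes on chromosome 14 that fell in every setting was Clu, the secreted chaperone clusterin at chr14:65968483-65981547, which stood at 4073, 1019 and 4191 CPM in TM and 316, 148 and 266 CPM in TMP. The 3 TMP values lay below all TM values, as in 23.8% of the genes tested. The log2 fold change was -3.67 ± 0.72 (SE, edgeR adjusted p = 0.0105). Lats2, a kinase of the Hippo pathway at chr14:57689662-57758388, fell as well (-1.22 ± 0.25, edgeR adjusted p = 0.0123). Gpr18, a receptor of lymphoid cells at chr14:121911253-121915781, went from 9.04, 34.3 and 8.58 CPM in TM to 0.0585, 0.863 and 0.0921 CPM in TMP. Gpr18 fell (-5.66 ± 1.13, edgeR adjusted p = 0.0114, or -4.68 without TM replicate 2 and -7.62 without TMP replicate 2). Its levels in TMP replicates 1 and 3 were under 3 counts, so the size of the fall is uncertain, above all without TMP replicate 2. These 3 changes were all larger than the median of the chromosome. Of the 513 genes, 48 fell and 5 rose in every setting, and 74.7% had a log2 fold change below 0, beside 53.1% of all genes tested. Among the few that rose was Slitrk5, a neuronal membrane protein, which stood at 0.0519, 0 and 0 CPM in TM and 17.1, 18.9 and 9.26 CPM in TMP.

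Many genes of the cell division machinery were higher in TMP. Of 47 genes of replication licensing and the replication fork, 43 rose and none fell, with a median log2 fold change of 1.18. Without single libraries, between 30 (TMP replicate 1) and 42 rose, and 28 rose in every setting. Mcm2, a subunit of the replicative helicase, stood at 44.3, 44.9 and 46.5 CPM in TM and 151, 156 and 136 CPM in TMP. Mcm2 rose by 1.71 ± 0.16 (SE, edgeR adjusted p = 0.0014). Orc1, which marks replication origins, rose by 1.95 ± 0.22 (SE, edgeR adjusted p = 0.00195), and Clspn, an adaptor of the fork checkpoint, by 1.97 ± 0.18 (SE, edgeR adjusted p = 0.00133). Pcna, the sliding clamp of the polymerases, rose by 1.03 ± 0.13 (SE, edgeR adjusted p = 0.0028). In each of these the 3 libraries of a group lay close together, and TM replicate 2 sat with the other TM libraries. At the step before, the entry into S phase, 13 of 22 genes rose and 1 fell, and 15 rose and 2 fell without TM replicate 2. Ccne2, a cyclin that drives this step, stood at 2.80, 2.58 and 2.72 CPM in TM and 9.76, 14.2 and 10.8 CPM in TMP. Ccne2 rose by 2.10 ± 0.28 (SE, edgeR adjusted p = 0.00301). Skp2, which targets the inhibitor p27 for destruction, rose by 1.92 ± 0.27 (SE, edgeR adjusted p = 0.00361). E2f1 rose by 1.36 ± 0.21 (SE, edgeR adjusted p = 0.0046). Rbl2 is a member of the retinoblastoma family that holds E2F targets down in resting cells. Rbl2 was the 1 gene of this list that fell with all libraries (-1.14 ± 0.20, edgeR adjusted p = 0.00727). Of 8 inhibitors of the cyclin-dependent kinases 2 rose and none fell, and 1 rose when any single library was left out. Cdkn1c, an imprinted inhibitor, stood at 8.88, 5.01 and 9.17 CPM in TM and 87.0, 56.99 and 62.97 CPM in TMP. Cdkn1c rose by 3.16 ± 0.37 (SE, edgeR adjusted p = 0.00221).

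The mitotic genes rose with them. Of 26 mitotic kinases and checkpoint genes, 25 rose, with a median log2 fold change of 1.71, and between 21 (without TMP replicate 1) and 25 rose when single libraries were left out. Bub1, a kinase of the spindle checkpoint, stood at 18.2, 11.5 and 16.6 CPM in TM and 79.1, 78.99 and 78.96 CPM in TMP. Bub1 rose by 2.36 ± 0.22 (SE, edgeR adjusted p = 0.00133). Aurka, the centrosome kinase, rose by 2.55 ± 0.25 (SE, edgeR adjusted p = 0.00142), Ccnb1, the mitotic cyclin, by 2.46 ± 0.29 (SE, edgeR adjusted p = 0.00218), and Birc5, the survivin subunit of the chromosomal passenger complex, by 1.83 ± 0.17 (SE, edgeR adjusted p = 0.00133). Of 35 centromere and kinetochore genes 28 rose, or 18 without TMP replicate 1, and of 25 kinesins 14 rose and 2 fell, the falls being lost without any 1 of the TMP libraries. Cenpa, the histone that marks centromeres, stood at 30.9, 17.7 and 27.4 CPM in TM and 115, 103 and 107 CPM in TMP, and Kif11, the motor that separates the spindle poles, at 49.1, 30.9 and 34.8 CPM in TM and 195, 177 and 150.4 CPM in TMP. Mybl2, which encodes the B-Myb of the complexes named above, stood at 17.3, 10.9 and 19.2 CPM in TM and 119, 93.4 and 85.4 CPM in TMP. Mybl2 rose by 2.65 ± 0.26 (SE, edgeR adjusted p = 0.00142), and its partner Foxm1 rose by 1.36 ± 0.20 (SE, edgeR adjusted p = 0.00443). Of 22 condensin, cohesin and topoisomerase genes 12 rose and 1 fell, and the fall was lost without any 1 library. Without TMP replicate 1, 6 rose, and 6 rose in every setting. Among these 6 were the condensin genes Smc2, Ncapd2 and Ncapg, which rose by 1.59, 2.12 and 2.05. In recombination and the DNA damage checkpoint, 18 of 36 genes rose, among them Brca1 (1.72 ± 0.19), Polq (2.14 ± 0.23) and the checkpoint kinase Chek1 (2.08 ± 0.27, SE).

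The letters upstream of these genes were read to show what the promoters of the 2 groups share. RefSeq promoters on GRCm38.p6, the mm10 assembly, running from 250 bases before to 50 bases after each start, matched 38 of the 47 replication genes and 68 of 86 mitotic genes. An E2F motif, searched as TTTGGCGC or TTTCCCGC on both strands, was present in 28.3% of the 46 promoters of replication genes, in 8.11% of the 74 promoters of mitotic genes and in 1.56% of all 32851 promoters. The CHR motif, searched as TTTGAA on both strands, was in 47.3% of the mitotic promoters, 10.9% of the replication promoters and 17.9% of all. Each motif was counted on its own, whether or not another overlapped it. CCAAT on either strand was in 63.5% of the mitotic promoters and 54.3% of the replication promoters, against 37.4% of all. Over the genes that rose as a whole, 4.67% of promoters held the E2F motif and 14.1% the CHR motif, and over the genes that fell 1.39% and 13.6%. Over the 14549 promoters of all genes tested these shares were 2.58% and 12.2%. The upstream 250 bases of 4 of these genes are shown, 5′ to 3′ along the strand of the gene, with the motif in capitals. They are the 2 replication genes and the 2 mitotic genes with the smallest adjusted p, among those called in every setting, that held the E2F or the CHR motif in this window. Mcm7 (chr5:138171884-138172133, minus strand) and Mcm5 (chr8:75109259-75109508, plus strand), subunits of the same helicase as Mcm2, hold an E2F match, which ends 157 and 141 bases before the start. Ube2c (chr2:164769679-164769928, plus strand), which loads ubiquitin for the anaphase-promoting complex, and Kif11 (chr19:37376132-37376381, plus strand) hold a CHR match 23 and 13 bases before it.
Mcm7: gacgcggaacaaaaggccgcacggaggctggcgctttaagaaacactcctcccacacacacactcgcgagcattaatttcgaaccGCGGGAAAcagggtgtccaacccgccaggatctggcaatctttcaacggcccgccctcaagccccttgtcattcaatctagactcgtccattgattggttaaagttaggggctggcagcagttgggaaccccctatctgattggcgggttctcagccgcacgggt
Mcm5: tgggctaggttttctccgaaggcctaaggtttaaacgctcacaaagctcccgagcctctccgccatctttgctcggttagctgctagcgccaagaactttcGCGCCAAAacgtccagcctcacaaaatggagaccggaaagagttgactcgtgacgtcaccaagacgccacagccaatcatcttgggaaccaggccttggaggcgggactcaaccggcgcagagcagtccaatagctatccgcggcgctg
Ube2c: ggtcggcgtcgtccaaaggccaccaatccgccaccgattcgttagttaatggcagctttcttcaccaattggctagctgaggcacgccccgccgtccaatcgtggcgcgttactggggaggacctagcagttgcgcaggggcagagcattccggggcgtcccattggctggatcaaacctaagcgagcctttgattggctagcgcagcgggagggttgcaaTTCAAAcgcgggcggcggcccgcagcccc
Kif11: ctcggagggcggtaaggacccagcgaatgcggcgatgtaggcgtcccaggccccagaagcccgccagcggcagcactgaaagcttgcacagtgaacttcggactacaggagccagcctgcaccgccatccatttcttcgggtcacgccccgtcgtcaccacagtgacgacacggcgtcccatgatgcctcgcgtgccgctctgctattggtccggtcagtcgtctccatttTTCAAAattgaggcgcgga
The level of Mcm7 was 85.0, 53.2 and 81.4 CPM in TM and 204, 195 and 166 CPM in TMP, that of Mcm5 44.03, 52.3 and 44.9 CPM in TM and 116, 117 and 116 CPM in TMP and that of Ube2c 33.4, 20.5 and 38.4 CPM in TM and 165, 155 and 159 CPM in TMP. In all 3 the groups did not overlap, as in 49.7% of the genes tested. A match of letters is a description of the window and shows no binding.

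Some chromatin genes that act at the replication fork rose too. Dnmt1, which copies DNA methylation behind the fork, stood at 103, 107 and 93.2 CPM in TM and 304, 309.9 and 249.8 CPM in TMP. Uhrf1, which guides it, rose by 1.51 ± 0.20 (SE, edgeR adjusted p = 0.00295). Ezh2, the Polycomb methyltransferase of dividing cells, stood at 39.2, 30.7 and 36.7 CPM in TM and 93.02, 94.2 and 80.8 CPM in TMP. Ezh2 rose by 1.33 ± 0.16 (SE, edgeR adjusted p = 0.00235), while its homologue Ezh1, which prevails in resting cells, went from 62.3, 66.8 and 67.4 CPM in TM to 38.5, 32.4 and 35.8 CPM in TMP. Ezh1 fell (-0.88 ± 0.15, edgeR adjusted p = 0.00594). Of 28 genes of DNA methylation and Polycomb, 10 rose and 1 fell, and 5 rose without TM replicate 3 and 6 without TMP replicate 1. Without TM replicate 2, 12 rose and 2 fell. Hells, a remodeller that acts with DNA methylation, rose by 2.32 ± 0.19 (SE, edgeR adjusted p = 0.00128). The ATPase Smarca4 and the core subunit Smarcc1 of SWI/SNF rose by 1.02 ± 0.14 and 1.32 ± 0.20 (SE), and 6 of 22 remodelling genes rose in every setting.

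Genes that make ribosomes rose, while genes for the ribosomal proteins themselves mostly did not pass the test. Of 45 genes of RNA polymerase I and III and rRNA processing, 32 rose and none fell, or 17 without TMP replicate 1. Rrp9, a factor of the small subunit, stood at 21.03, 22.6 and 28.9 CPM in TM and 101, 82.4 and 70.2 CPM in TMP. Rrp9 rose by 1.80 ± 0.24 (SE, edgeR adjusted p = 0.0029). Bop1, a factor of the large subunit, rose by 1.21 ± 0.13 (SE, edgeR adjusted p = 0.00181). Of 75 cytosolic ribosomal protein genes, 4 rose and none fell, with a median of 0.25, and none of the 4 passed in every setting. The 75 mitochondrial ribosomal proteins differed, with 41 rises, and 26 rises without TMP replicate 1 and 27 without TMP replicate 3. Mrpl21 is 1 example, at 20.7, 22.1 and 24.5 CPM in TM and 51.9, 50.2 and 51.8 CPM in TMP. In translation, 14 of 30 factors rose, or 9 without TMP replicate 1, led by the cap-binding protein Eif4e at 76.4, 85.96 and 99.7 CPM in TM and 254, 209 and 253 CPM in TMP. Eif4e rose by 1.45 ± 0.16 (SE, edgeR adjusted p = 0.00193). The E-box CACGTG, a site of the Myc family, was in 17% of 47 promoters of the ribosome production genes, in 11.5% of promoters of all genes that rose, in 7.94% of those of genes that fell, in 9.40% of those of all genes tested and in 7.15% of all promoters.

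Of 24 tRNA synthetase genes, 18 rose (11 without TMP replicate 1), such as Tars by 1.04 ± 0.16 and the mitochondrial Yars2 by 1.38 ± 0.19 (SE). Wars, the synthetase for tryptophan, was the 1 that fell, in every setting. It stood at 182, 435 and 179 CPM in TM and 58.8, 48.7 and 58.2 CPM in TMP, and its log2 fold change was -2.26 ± 0.37 (SE, edgeR adjusted p = 0.0055). Among synthetases, Wars is known for its induction by interferon gamma. Of 44 splicing genes 30 rose, and of 34 nuclear pore and import genes 25 rose, with 24 and 21 in every setting. The 1 gene that fell in each of these lists did not do so without TMP replicate 2. Kpna2, an importin that carries proteins into the nucleus, stood at 91.6, 64.5 and 109 CPM in TM and 389.7, 394 and 383 CPM in TMP and Cse1l, which recycles it, at 103, 91.3 and 82.9 CPM in TM and 266, 266 and 275 CPM in TMP. Of 26 heat shock and chaperonin genes 17 rose and none fell, and 1 fell without TM replicate 2. Hspa4l stood at 29.5, 21.1 and 38.3 CPM in TM and 165, 117 and 124 CPM in TMP.

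**Figure D3:**
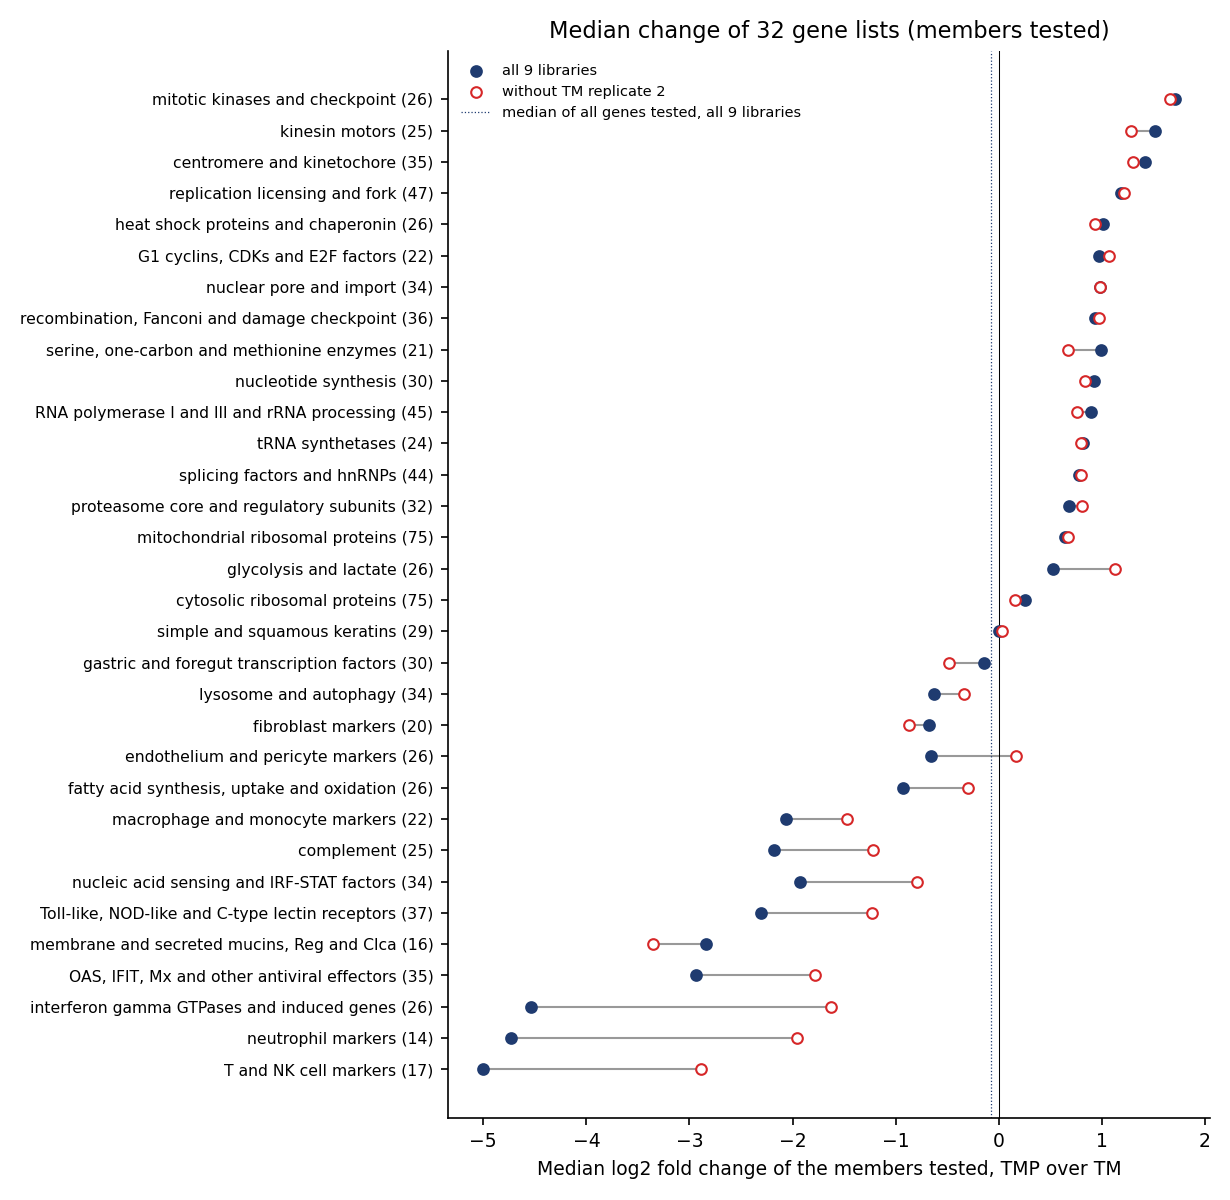
Each row is a gene list with the number of members tested in parentheses, and points give the median log2 fold change of those members (x axis) with all 9 libraries (filled) and without TM replicate 2 (open). Lists of division and growth keep nearly the same median in both fits, while interferon and immune lists move towards 0, for example from -4.54 to -1.63 for the interferon gamma list.

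Enzymes that make serine and pass its carbon on rose. Phgdh, the first enzyme of serine synthesis at chr3:98313170-98339990, stood at 47.2, 65.3 and 61.7 CPM in TM and 433, 292 and 329 CPM in TMP. Phgdh rose by 2.60 ± 0.20 (SE, edgeR adjusted p = 0.00128). The next steps of the route moved with it: Psat1 rose by 1.68 ± 0.31 (SE, edgeR adjusted p = 0.00871), and Shmt2, which passes the carbon of serine to folate in mitochondria, by 1.71 ± 0.29 (SE, edgeR adjusted p = 0.00621). Mthfd1l, which releases that carbon as formate, rose by 1.86 ± 0.28 (SE, edgeR adjusted p = 0.00433), and Amt, a subunit of the glycine cleavage system, by 2.63 ± 0.40 (SE, edgeR adjusted p = 0.00479). In Psat1, Shmt2, Mthfd1l and Asns the level in TMP replicate 1 was the highest of the 3 TMP libraries, for example 404 CPM against 228 and 217 CPM for Shmt2. Of 21 genes of the list 10 rose and none fell, and 5 rose without TMP replicate 1 or without TMP replicate 3. Asns, which makes asparagine, rose by 1.65 ± 0.30 (SE, edgeR adjusted p = 0.00835), and Slc7a5, the transporter of large neutral amino acids, by 1.56 ± 0.35 (SE, edgeR adjusted p = 0.0161), or 1.02 without TMP replicate 1. Glul, which makes glutamine, ran the other way, at 446, 1361 and 460.3 CPM in TM and 90.5, 103 and 97.99 CPM in TMP. Glul fell (-2.96 ± 0.44, edgeR adjusted p = 0.00426, or -2.22 without TM replicate 2). Of 30 genes of nucleotide synthesis 21 rose, or 10 without TMP replicate 1. Dut, which keeps uracil out of DNA, and Tyms, which makes thymidylate, rose by 1.82 ± 0.20 and 1.71 ± 0.19 (SE).

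Of 12 genes of polyamine synthesis and breakdown tested, 3 rose and 1 fell in every setting, beside 6.29% and 2.72% of all genes tested. Odc1, the first enzyme of polyamine synthesis, stood at 159, 154 and 166 CPM in TM and 452, 385 and 418 CPM in TMP. Odc1 rose by 1.39 ± 0.22 (SE, edgeR adjusted p = 0.00509). Srm, which makes spermidine, rose by 1.81 ± 0.22 (SE, edgeR adjusted p = 0.0025). Sat1, which marks polyamines for breakdown and export, went down from 221, 254 and 269 CPM to 127, 90.4 and 119 CPM. Sat1 fell (-1.14 ± 0.17, edgeR adjusted p = 0.00457). Over the list of 12 genes, 4 rose and 2 fell, beside 14.3% and 13.4% of all genes tested. Of the 2 falls, 1 was lost without TM replicate 2, TM replicate 3 or any TMP library.

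In oxygen sensing, the gene of HIF-2 alpha fell while genes that hypoxia induces rose. Epas1, which encodes HIF-2 alpha at chr17:86753700-86833410, stood at 392, 495 and 321 CPM in TM and 31.6, 42.2 and 44.2 CPM in TMP. The lowest TM library was thus far above the highest TMP library, and TM replicate 2 was the highest of the TM libraries. The log2 fold change was -3.36 ± 0.25 (SE, edgeR adjusted p = 0.00128), and -3.17 ± 0.22 without TM replicate 2. Hif1a stood at 167, 453 and 158 CPM in TM and 338, 309 and 421 CPM in TMP and did not pass the test (0.46 ± 0.46, edgeR adjusted p = 0.481), though it did without TM replicate 2 (1.14 ± 0.34, edgeR adjusted p = 0.0383). Car9, the carbonic anhydrase that HIF-1 induces, stood at 7.74, 2.29 and 9.22 CPM in TM and 97.2, 35.2 and 78.1 CPM in TMP. Car9 rose by 3.44 ± 0.65 (SE, edgeR adjusted p = 0.00924). P4ha2, a collagen prolyl hydroxylase, rose by 2.19 ± 0.37 (SE, edgeR adjusted p = 0.00654). Of 21 genes of the list 7 rose and 1 fell, with 3 rises without TMP replicate 1 or TMP replicate 3. Within these genes TMP replicate 2 was the lowest of the TMP libraries in Car9, at 35.2 CPM, while in Epas1 the 3 TMP libraries lay close together.

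Glycolysis followed in part. Pkm, the pyruvate kinase, stood at 732, 1424 and 969 CPM in TM and 4199, 2831 and 3377 CPM in TMP. Pkm rose by 1.74 ± 0.31 (SE, edgeR adjusted p = 0.00821). Tpi1, an enzyme of the middle of the route, rose by 1.59 ± 0.24 (SE, edgeR adjusted p = 0.00472). Pdk2, a kinase that closes the entry of pyruvate into mitochondria, fell (-1.97 ± 0.24, edgeR adjusted p = 0.0025). Of 26 genes 7 rose and 2 fell, and 12 rose without TM replicate 2. In fatty acid synthesis the direction turned with that library. Fasn, the fatty acid synthase, stood at 242, 8865 and 248 CPM in TM and 562, 565 and 482 CPM in TMP, with TM replicate 2 far above the rest. Its fitted change was -2.54 ± 1.24 (SE, edgeR adjusted p = 0.157) with that library and 1.14 ± 0.15 (SE, edgeR adjusted p = 0.0021) without it. Elovl6, which lengthens fatty acids, turned in the same way from -0.53 ± 0.83 (SE, edgeR adjusted p = 0.657) to 1.53 ± 0.25 (SE, edgeR adjusted p = 0.00444). The adipocyte gene Adipoq stood at 0, 375 and 0.227 CPM in TM and 0.0585, 13.96 and 12.2 CPM in TMP, so that the library with the highest Fasn also had the highest Adipoq, and the part of fat tissue in the Fasn level was not tested. Among lysosomal genes 13 of 34 fell and none rose, with 2 falls without TMP replicate 1 and 3 without TMP replicate 2 or 3. Falls over all genes shrank in these fits too, from 2051 to 483, 761 and 611. Ctsh, a protease of the lysosome, fell in every setting, with a log2 fold change of -1.40 ± 0.24 (SE).

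Of 32 proteasome subunits 23 rose and none fell, with 13 rises without TMP replicate 1 and 11 without TMP replicate 3. Psmb7, a catalytic subunit of the standard particle, stood at 103, 153 and 129.9 CPM in TM and 397, 326 and 376 CPM in TMP. Psmb7 rose by 1.51 ± 0.18 (SE, edgeR adjusted p = 0.00221). The subunit that replaces it in the immunoproteasome, Psmb10, went the other way, at 44.1, 299 and 53.5 CPM in TM and 19.3, 26.8 and 26.4 CPM in TMP. Psmb10 fell (-2.45 ± 0.69, edgeR adjusted p = 0.0334, or -1.01 ± 0.21, edgeR adjusted p = 0.01 without TM replicate 2). Without any 1 of the TMP libraries that fall did not pass, with edgeR adjusted p between 0.0892 and 0.113.

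In the mTOR pathway, Ddit4, which restrains mTORC1 under stress, stood at 43.8, 54.5 and 70.1 CPM in TM and 800.5, 409.5 and 539 CPM in TMP. Ddit4 rose by 3.38 ± 0.38 (SE, edgeR adjusted p = 0.00196). Deptor, an inhibitor bound to mTOR itself, stood at 99.6, 82.2 and 70.8 CPM in TM and 16.1, 19.8 and 13.6 CPM in TMP. Deptor fell (-2.35 ± 0.21, edgeR adjusted p = 0.00128). The 2 inhibitors of mTOR thus moved in opposite directions, both without overlap between groups, as in 49.7% of the genes tested. Pik3cg, the PI3-kinase of leukocytes, fell (-3.06 ± 0.41, edgeR adjusted p = 0.00309). Of 35 genes of the list 4 rose and 7 fell, and without single TMP libraries 2 rose and 3 or 4 fell. Beside this and the other lists of this paragraph, 14.3% of all genes tested rose and 13.4% fell. In the TGF-beta family, Inhba, the activin A subunit, stood at 12.5, 14.8 and 11.4 CPM in TM and 82.1, 67.7 and 97.3 CPM in TMP. Inhba rose by 2.67 ± 0.55 (SE, edgeR adjusted p = 0.0123). Ltbp1, which tethers latent TGF-beta, rose by 1.64 ± 0.35 (SE, edgeR adjusted p = 0.0136). Tgfbr2, the type II receptor of TGF-beta, stood at 404, 470.3 and 399 CPM in TM and 117, 178 and 144 CPM in TMP and fell in every setting (-1.54 ± 0.24, edgeR adjusted p = 0.00502). Of 40 genes of the TGF-beta and BMP list 5 rose and 4 fell, 3 rose and 5 fell without TM replicate 2, and 2 rose without TM replicate 3 or any 1 of the TMP libraries. With all libraries both counts were near the shares over all genes tested. In the Hippo pathway, Tead2, a DNA-binding partner of YAP expressed in embryos, stood at 9.09, 11.7 and 12.8 CPM in TM and 115, 123 and 79.01 CPM in TMP. Tead2 rose by 3.24 ± 0.24 (SE, edgeR adjusted p = 0.00128). Of 23 genes of that list 4 rose and 1 fell, 3 and 3 without TM replicate 2, and 1 rose without TMP replicate 1. Among genes of RAS-MAPK feedback and AP-1, the immediate early gene Fos fell in every setting, at 158, 115 and 72.96 CPM in TM and 36.95, 27.6 and 34.0 CPM in TMP. It was the 1 fall in that list of 34, where 2 genes rose, and 4 rose and 3 fell without TM replicate 2. Bcl2l14 was 1 of 9 genes of the Bcl2 family list of 26 that fell, with a log2 fold change of -2.95 ± 0.37 (SE, edgeR adjusted p = 0.00256), and 5 genes of the list fell without TMP replicate 3. In the same list 3 genes rose, 4 without TM replicate 2 and none without TMP replicate 1.

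Glandular and secretory genes were lower in TMP than in TM replicates 1 and 3, and more of them passed without TM replicate 2, the library with the low keratin level. The part of that library's low epithelial level in this was not tested. Over 29 keratins tested none passed, and without TM replicate 2 none rose and 4 fell. Over 16 mucin, Reg and Clca genes 4 fell, and 10 of 18 without TM replicate 2, 1 without TM replicate 1 and none without TMP replicate 1, 2 or 3. Dmbt1, a secreted mucosal glycoprotein, stood at 2850.0, 0.0716 and 658 CPM in TM and 0.117, 0.108 and 0.23 CPM in TMP. Dmbt1 fell (-12.82 ± 3.06, edgeR adjusted p = 0.0198, or -13.39 ± 1.30, edgeR adjusted p = 0.00111 without TM replicate 2). Its TMP levels were near or under 3 counts per library, so the size of the fall is uncertain. Muc5b, a gel-forming mucin, stood at 99.8, 0 and 47.7 CPM in TM and 0.234, 0.701 and 1.15 CPM in TMP, and fell too (-6.11 ± 1.82, edgeR adjusted p = 0.0398, or -6.68 ± 0.61, edgeR adjusted p = 0.00101 without TM replicate 2). Without TMP replicate 1, 2 or 3 neither fall passed, with edgeR adjusted p between 0.074 and 0.0823 for Dmbt1 and between 0.102 and 0.133 for Muc5b, nor did Muc5b without TM replicate 1 or 3 (0.0922 and 0.0637). Without TM replicate 1 the log2 fold changes were -10.99 for Dmbt1 and -5.08 for Muc5b. The level of both in TM replicate 2 was as low as in TMP. Hnf4a, a factor of gland and gut epithelium, stood at 62.4, 0 and 34.3 CPM in TM and 0.292, 0.27 and 1.24 CPM in TMP. Of these 2 fits it passed the one without TM replicate 2, with -6.27 ± 1.41 (SE, edgeR adjusted p = 0.0137) against -5.71 ± 2.23 (SE, edgeR adjusted p = 0.0881). The same held for Spdef, a factor of mucous cells (-2.69 ± 0.47, edgeR adjusted p = 0.0056 against -2.16 ± 0.93, edgeR adjusted p = 0.114), and for Agr2, which folds mucins (-4.38 ± 0.77, edgeR adjusted p = 0.00579 against -3.81 ± 1.66, edgeR adjusted p = 0.117).

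Across 30 gastric and foregut transcription factors, 2 rose and 2 fell with all libraries, 1 rose and 12 fell of 34 without TM replicate 2, and none passed without TMP replicate 1, 2 or 3. Of the gastric cell products 2 of 13 fell, or 9 of 15 once TM replicate 2 was left out. Without TMP replicate 1, 2 and 3 the falls numbered 0, 0 and 1. Ctse, a protease of surface mucous cells that macrophages also make, was low in TMP and high in all 3 TM libraries, at 84.3, 98.5 and 65.1 CPM in TM and 1.93, 2.43 and 5.34 CPM in TMP. Ctse fell (-4.67 ± 0.95, edgeR adjusted p = 0.0122). Its fall did not pass without TMP replicate 1 or 2, where the edgeR adjusted p was 0.0585 and 0.0511. Claudin gene Cldn22 fell in every setting, from 5.19, 4.37 and 6.27 CPM in TM to 0.117, 0.216 and 0.322 CPM in TMP. Among receptors, Fgfr3, a fibroblast growth factor receptor, stood at 357, 6.23 and 244 CPM in TM and 14.7, 7.23 and 20.5 CPM in TMP, with -3.84 ± 1.25 (SE, edgeR adjusted p = 0.0519) and, without TM replicate 2, -4.40 ± 0.68 (SE, edgeR adjusted p = 0.00383). Erbb2 and Erbb3, partner receptors of the EGF family, passed without TM replicate 2 and not with it, with -1.66 ± 0.32 and -1.74 ± 0.49 against -1.15 ± 0.72 and -1.26 ± 0.75 (SE) with it. Sox2, Krt8 and Epcam did not pass in either fit, and Epcam stood at 458, 55.2 and 535 CPM in TM and 615, 466 and 514 CPM in TMP.

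**Figure D4:**
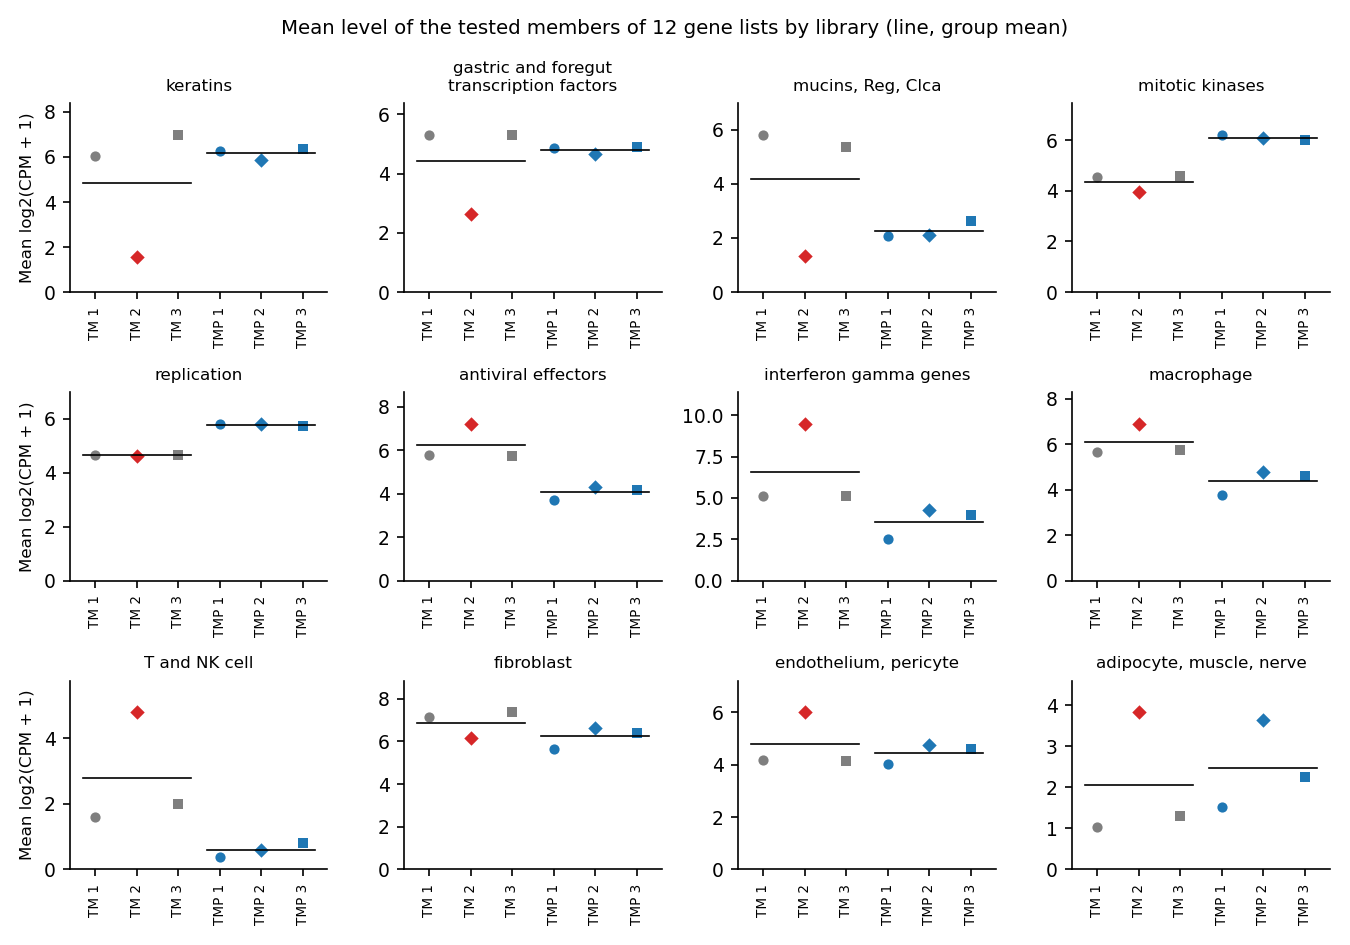
Each panel is a gene list, and points give the mean of log2(CPM + 1) over its tested members (y axis) in each of the 6 libraries, with a line at the group mean. TM replicate 2 is below every other library for keratins and for gastric and foregut transcription factors and above all others for the interferon gamma, macrophage and T and NK cell lists.

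Receptors and adaptors of innate sensing were lower in TMP. Of 37 Toll-like, NOD-like and C-type lectin receptor genes 23 fell and none rose, and 22 fell without TM replicate 2. Without TMP replicate 1, 2 and 3 the falls were 8, 11 and 9, in fits with fewer falls over all genes too. Irak3, an inhibitor of the Toll-like receptor pathway, stood at 71.5, 68.1 and 66.2 CPM in TM and 7.07, 7.28 and 6.17 CPM in TMP. Irak3 fell (-3.33 ± 0.27, edgeR adjusted p = 0.00128). Its values lay close together within each group, TM replicate 2 included. The receptors Tlr1 (-4.16 ± 0.83, edgeR adjusted p = 0.0112, or -3.33 without TM replicate 2) and Tlr2 (-1.35 ± 0.24, edgeR adjusted p = 0.00797), which pair to sense bacterial lipopeptides, fell, as did Tlr4 (-1.97 ± 0.36, edgeR adjusted p = 0.00861), which senses lipopolysaccharide. Aim2, a sensor of cytosolic DNA, stood at 43.4, 55.3 and 45.9 CPM in TM and 5.38, 3.50 and 6.63 CPM in TMP. Aim2 fell (-3.22 ± 0.44, edgeR adjusted p = 0.00337). Nlrc4, a sensor of bacterial proteins, fell (-3.48 ± 0.54, edgeR adjusted p = 0.00481). Ikbke, a kinase that joins these sensors to interferon genes, fell (-2.76 ± 0.47, edgeR adjusted p = 0.00683).

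Antiviral effectors of the interferon response fell with and without TM replicate 2. Of 35 antiviral effectors 28 fell and none rose, both with all libraries and without TM replicate 2, where the median moved from -2.94 to -1.78. Without TMP replicate 1, 2 or 3, 10, 17 and 13 fell. Oas2, which senses double-stranded RNA, stood at 142, 201 and 108 CPM in TM and 4.09, 16.9 and 8.57 CPM in TMP. Oas2 fell (-3.93 ± 0.63, edgeR adjusted p = 0.00536). Ifit1, which binds foreign RNA caps, stood at 63.2, 219 and 62.2 CPM in TM and 9.65, 16.9 and 10.7 CPM in TMP and fell (-3.21 ± 0.54, edgeR adjusted p = 0.00641, or -2.33 without TM replicate 2). Irf7, the factor that amplifies type I interferon, stood at 151, 1137 and 177 CPM in TM and 13.9, 28.8 and 21.7 CPM in TMP. Irf7 fell (-4.50 ± 0.88, edgeR adjusted p = 0.0105, or -2.92 without TM replicate 2). Ifngr1, a chain of the interferon gamma receptor, fell (-1.79 ± 0.23, edgeR adjusted p = 0.00279). In all 4 the TMP libraries were below the lowest TM library, as in 23.8% of the genes tested. Within the Oas family, Oas1a and Oas1g had 0 counts in TM replicate 2, at 53.4, 0 and 44.7 CPM and 22.7, 0 and 18.5 CPM over the TM libraries, while Oas2 and Oas3 were at their highest there. Oas1a and Oas1g did not pass with all libraries (edgeR adjusted p = 0.56 and 0.438) and fell without TM replicate 2 (-1.71 and -2.02, edgeR adjusted p = 0.0313 and 0.0135).

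Genes that mainly interferon gamma induces fell in fewer cases without TM replicate 2. Of 26, 19 fell with all libraries and 9 fell and 1 rose without it, where the median moved from -4.54 to -1.63, and none fell without TMP replicate 1, 2 or 3. Wars, which the same interferon induces, passed in every setting. Of 15 genes of MHC class I and peptide loading, 7 fell with all libraries, 2 without TM replicate 2 and none without TMP replicate 1, 2 or 3. In MHC class II, H2-Eb1 stood at 212, 2072 and 249 CPM in TM and 5.50, 1.40 and 69.2 CPM in TMP. H2-Aa stood at 279, 2157 and 307 CPM in TM and 5.91, 228 and 81.6 CPM in TMP. TMP replicate 2 thus held H2-Aa at the highest and H2-Eb1 at the lowest level of the TMP libraries, and neither gene passed (edgeR adjusted p = 0.074 for H2-Eb1 and 0.139 for H2-Aa).

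Promoters of the interferon lists held more of the interferon response element than promoters at large. Searched on both strands as a pair of GAAA with any 2 bases between them, it was in 44.1% of 34 promoters of the antiviral list and 58.8% of 17 promoters of the interferon gamma list, beside 3.44% of all promoters and 3.11% of those of all genes tested. It was in 6.09% of promoters of genes that fell and in 2.77% of those of genes that rose. The STAT motif TTCNNNGAA, searched in the same way, was in 23.5%, 41.2%, 8.30%, 8.46% and 6.32% of these sets, and in 6.96% of the promoters of all genes tested. The 2 antiviral genes with the smallest adjusted p, among those called in every setting, that hold the response element upstream are shown with it in capitals, Ifit1 (chr19:34640639-34640888, plus strand) and Oas3 (chr5:120777660-120777909, minus strand).
Ifit1: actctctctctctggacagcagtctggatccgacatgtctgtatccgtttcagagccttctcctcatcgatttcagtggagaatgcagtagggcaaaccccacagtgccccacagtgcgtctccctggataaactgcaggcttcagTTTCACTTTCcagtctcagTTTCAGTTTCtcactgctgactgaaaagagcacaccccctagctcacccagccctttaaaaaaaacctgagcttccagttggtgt
Oas3: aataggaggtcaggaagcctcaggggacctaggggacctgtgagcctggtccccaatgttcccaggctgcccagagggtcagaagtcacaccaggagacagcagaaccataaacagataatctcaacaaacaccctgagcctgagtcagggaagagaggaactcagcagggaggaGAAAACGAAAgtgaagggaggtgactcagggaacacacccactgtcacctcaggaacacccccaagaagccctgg
Ifit1 holds 2 matches, the nearer 75 bases before the start, and Oas3 holds 1, at 65 bases. Oas3 was also among the 12 largest falls, at 48.6, 311 and 41.04 CPM in TM and 3.22, 5.93 and 5.02 CPM in TMP. Oas3 fell (-4.82 ± 0.84, edgeR adjusted p = 0.00737, or -3.24 without TM replicate 2).

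Markers of myeloid cells were lower in TMP, with TM replicate 2 and without it. Of 22 macrophage and monocyte markers 10 fell and none rose, 9 without TM replicate 2 and 6, 7 and 6 without TMP replicate 1, 2 and 3. Their summed level was 6024, 13075 and 6199 CPM in TM and 1611, 2612 and 2127 CPM in TMP. Adgre1, the F4/80 antigen, stood at 294, 149.9 and 255 CPM in TM and 17.8, 47.3 and 30.7 CPM in TMP. Adgre1 fell (-2.87 ± 0.47, edgeR adjusted p = 0.00594). Csf1r, the receptor of the macrophage growth factor, stood at 231, 496 and 227 CPM in TM and 33.97, 88.9 and 74.9 CPM in TMP. Csf1r fell (-2.27 ± 0.44, edgeR adjusted p = 0.0104). Spi1, the factor that sets myeloid fate, fell (-3.09 ± 0.59, edgeR adjusted p = 0.00983, or -2.20 without TM replicate 2), as did Lyz2, the lysozyme of macrophages (-2.28 ± 0.46, edgeR adjusted p = 0.012). Siglece, an inhibitory receptor of myeloid cells, was among the 12 largest falls, at 51.3, 39.1 and 46.7 CPM in TM and 0.526, 3.67 and 1.06 CPM in TMP, a log2 fold change of -4.70, or -5.79 without TMP replicate 2. Itgal, the integrin chain of LFA-1 on leukocytes, stood at 78.4, 327 and 61.7 CPM in TM and 3.63, 12.2 and 10.1 CPM in TMP, a log2 fold change of -4.16, or -3.01 without TM replicate 2. Fpr2, a formyl peptide receptor of neutrophils and macrophages, fell (-4.96 ± 0.92, edgeR adjusted p = 0.00896, or -3.78 without TM replicate 2).

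Counts for other leukocyte lists moved more with single libraries. Of 17 T and NK cell markers with enough counts 14 fell, 8 without TM replicate 2 and 0, 1 and 3 without TMP replicate 1, 2 and 3. Cd3e, a chain of the T cell receptor complex that was too low to be tested, stood at 0.26, 21.5 and 0.318 CPM in TM and 0, 0.0539 and 0.0921 CPM in TMP. Of 14 neutrophil markers 9 fell, 6 without TM replicate 2 and 2, 2 and 3 without TMP replicate 1, 2 and 3. Of 10 B and plasma cell markers 5 fell, 4 without TM replicate 2 and 0, 1 and 0 without TMP replicate 1, 2 and 3. Of 15 dendritic and mast cell markers 2 fell, 4 without TM replicate 1 or 3 and none without any 1 of the other libraries, and 1 rose without TM replicate 2. Their summed level over 19 genes was 221, 1221 and 268 CPM in TM and 327, 448 and 352 CPM in TMP, so that TMP lay above TM replicates 1 and 3 and below TM replicate 2.

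Secreted signals of inflammation were lower in part. Cxcl13, the chemokine that draws B cells, was the largest fall by the rule used here, at 327, 743 and 386 CPM in TM and 3.57, 12.5 and 10.2 CPM in TMP. Cxcl13 fell (-5.79 ± 0.67, edgeR adjusted p = 0.00216). Its TM levels were high in all 3 libraries. Cxcl16, a chemokine bound to membranes, fell (-1.50 ± 0.21, edgeR adjusted p = 0.00369), and 9 of 32 chemokine ligands fell, with 2, 3 and 4 falls without TMP replicate 1, 2 and 3. Lgals9, a ligand of inhibitory T cell receptors, stood at 182, 264 and 199.8 CPM in TM and 34.8, 49.1 and 49.9 CPM in TMP. Lgals9 fell (-2.27 ± 0.27, edgeR adjusted p = 0.00229). Cd274, which encodes PD-L1, stood at 27.3, 697 and 23.5 CPM in TM and 13.97, 13.05 and 15.5 CPM in TMP, with TM replicate 2 far above the rest. Its fall (-4.13 ± 1.28, edgeR adjusted p = 0.0441) did not pass without TM replicate 2 (-0.83 ± 0.32, edgeR adjusted p = 0.0783) or without TMP replicate 1, 2 or 3 (edgeR adjusted p between 0.121 and 0.134). Of 25 complement genes 18 fell and none rose, 16 without TM replicate 2 and 3, 6 and 4 without TMP replicate 1, 2 and 3.

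Ces1d, Ces1f, Cyp4b1, Akr1c12 and Vnn3 were also among the 12 largest falls, and were picked out after their values were seen. The carboxylesterase gene Ces1d stood at 106, 96.9 and 132 CPM in TM and 1.70, 3.18 and 6.91 CPM in TMP, a log2 fold change of -4.82, or -5.51 without TMP replicate 3. A second gene of the family, Ces1f, stood at 11.3, 24.3 and 20.2 CPM in TM and 0.175, 0.377 and 0.967 CPM in TMP, a log2 fold change of -5.16, or -6.02 without TMP replicate 3. Cyp4b1, a cytochrome P450 of epithelia, stood at 51.6, 71.1 and 44.6 CPM in TM and 1.70, 2.16 and 1.84 CPM in TMP. Cyp4b1 fell (-4.87 ± 0.63, edgeR adjusted p = 0.00275). Akr1c12, an aldo-keto reductase, fell (-4.78 ± 0.75, edgeR adjusted p = 0.00498). Vnn3, a pantetheinase, fell (-4.52 ± 0.62, edgeR adjusted p = 0.0033). These falls were present in all TM libraries, with the lowest TM level of Akr1c12 and Vnn3 in replicate 2. Of 28 genes of the glutathione and Nrf2 target list 5 fell and 1 rose, with a median of -0.15. Over all genes tested 13.4% fell and 14.3% rose, with a median of -0.07, so the falls were near that share. Without TM replicate 2, 8 fell and 3 rose, and 2 and 3 fell without TMP replicate 1 and 2. Gstm2 fell (-2.49 ± 0.40, edgeR adjusted p = 0.00544), as did the secreted peroxidase Gpx3 (-1.56 ± 0.30, edgeR adjusted p = 0.0101), whereas Txnrd1, the thioredoxin reductase, rose by 0.99 ± 0.15 (SE, edgeR adjusted p = 0.0044). Reads of the Ces1, Akr1c and Gstm families may be split between near-identical copies, since the rule for counting them is not given in the sources used here.

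Few stromal markers passed with all libraries. Of 20 fibroblast markers 3 fell, with a median of -0.67, and none fell without TMP replicate 1 or 2. Without TM replicate 2, 6 fell with a median of -0.87, where 15.1% of all genes fell. None of 26 endothelial and pericyte markers passed, and 3 rose without TM replicate 2. The endothelial gene Cdh5 stood at 63.9, 132 and 48.6 CPM in TM and 30.2, 66.8 and 60.8 CPM in TMP, with -0.63 ± 0.43 (SE, edgeR adjusted p = 0.288) and, without TM replicate 2, -0.09 ± 0.34 (SE, edgeR adjusted p = 0.856). Of 21 adipocyte, muscle and nerve markers 3 rose and none fell, with a median of -0.93, and without TM replicate 2 the median of 22 was 3.56 with 1 rise. Of 30 matrix glycoproteins and proteoglycans 2 rose and 1 fell, with a median of -0.48, and without TM replicate 2, 3 rose and 4 fell. Of 30 matrix proteases and inhibitors 3 rose and 3 fell, 4 and 6 of 31 without TM replicate 2, and 1 rose and none fell without TMP replicate 1. Mmp13, a collagenase of growth plate and bone, stood at 20.1, 14.4 and 36.5 CPM in TM and 299, 253 and 261 CPM in TMP. Mmp13 rose by 3.51 ± 0.64 (SE, edgeR adjusted p = 0.00841). Mgp, an inhibitor of calcification, stood at 15.8, 9.60 and 25.7 CPM in TM and 223, 79.3 and 90.2 CPM in TMP. Mgp rose by 2.94 ± 0.62 (SE, edgeR adjusted p = 0.0138), or 2.33 without TMP replicate 1. Col11a2, a fibrillar collagen of cartilage, rose by 1.78 ± 0.32 (SE, edgeR adjusted p = 0.00817). Col2a1, the main collagen of cartilage, stood at 0.208, 0 and 0.227 CPM in TM and 4.21, 0.863 and 59.4 CPM in TMP, with TMP replicate 3 far above the others. Its rise of 7.06 ± 1.96 (SE, edgeR adjusted p = 0.0319) did not pass without any 1 of the libraries other than TMP replicate 2, with edgeR adjusted p between 0.0542 and 0.0994. Its log2 fold change was 7.66 without TMP replicate 2 and 4.01 without TMP replicate 3. Of 35 collagen chains 3 rose and 1 fell, and 1 or 2 rose when single libraries were left out. Of 34 integrin and laminin genes 1 rose and 5 fell, and 3 rose and 10 fell without TM replicate 2. Over all genes tested 14.3% rose and 13.4% fell, and 16% and 15.1% without TM replicate 2. With all libraries no list of this paragraph was far above those shares. Lama2, a laminin chain of muscle and nerve basement membranes, fell (-1.80 ± 0.26, edgeR adjusted p = 0.00403).

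**Figure D5:**
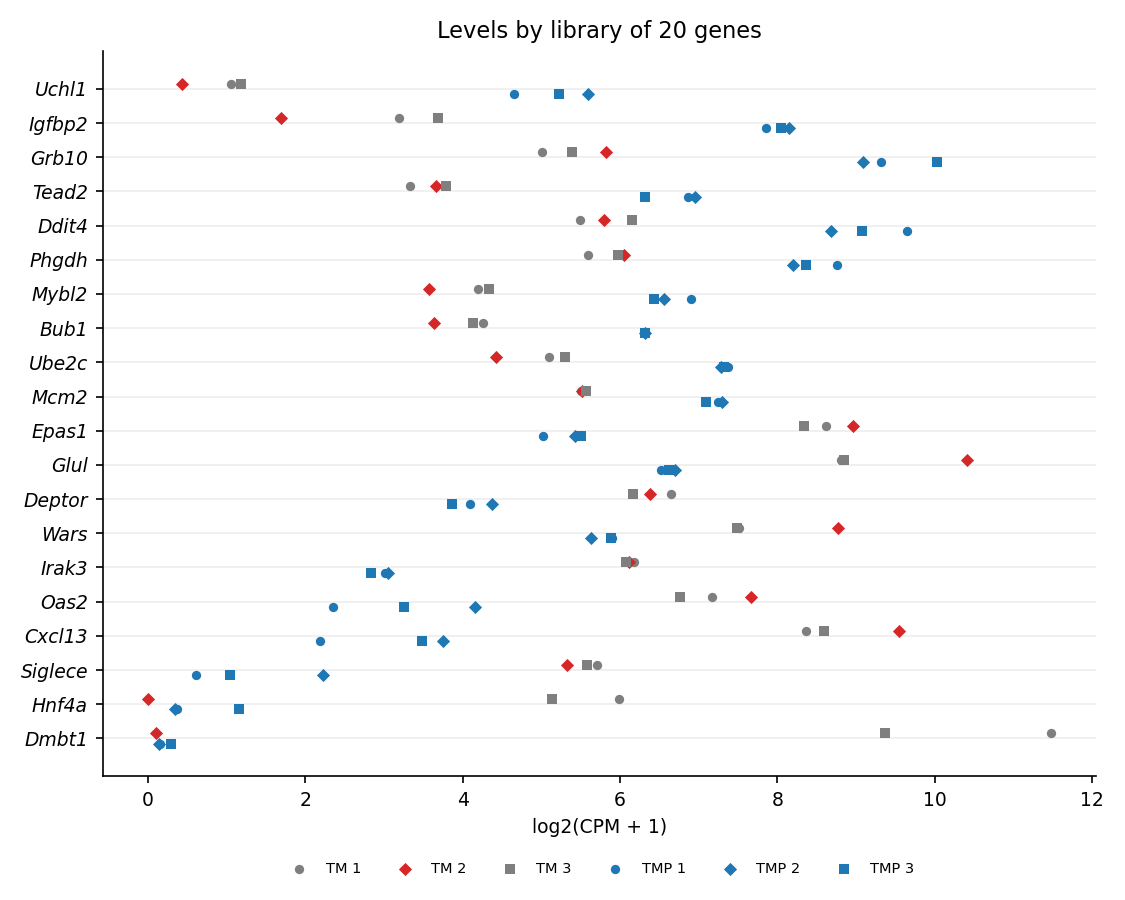
Each row is a gene and each point a library, placed by log2(CPM + 1) on the x axis, with the 3 TM libraries above the row line and the 3 TMP libraries below it. From Uchl1 to Mcm2 every TMP library lies right of every TM library, from Epas1 to Siglece every TMP library lies left of them, and in Hnf4a and Dmbt1 TM replicate 2 lies with the TMP libraries.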

How the data were processed

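Polyadenylated RNA of subcutaneous TM and TMP tumours was sequenced. The submitters' processing notes name the build mm10 and the aligner STAR 2.6.0. How reads were counted, and against which annotation, is not given in the sources used here. The authors deposited raw read counts per gene, with a signal column of counts divided by DESeq2 size factors, which served only to check the rows. Gene symbols are out of step in the subcutaneous table from entry 12291 of 24421, so each row took its symbol by row position from the deposited table of orthotopic and subcutaneous TMPC tumours. The subcutaneous TMPC counts that both tables hold were equal in all 24421 entries. Within the subcutaneous table, the counts matched the signal column, times its size factor, in 14200 of 24419 entries as deposited and in 24419 after the step, within 0.01 reads.

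Counts of the 3 TM, 3 TMP and 3 TMPC subcutaneous libraries were fitted together (edgeR 4.0.16, quasi-likelihood F test, TMM, filterByExpr, R 4.3.3, 6 residual degrees of freedom), with Benjamini-Hochberg adjustment over all genes tested. SE is the absolute log2 fold change divided by the square root of F. CPM are those counts per 1000000, scaled by TMM. The scripts were tested on simulated data. Named genes are the 12 largest rises and 12 largest falls (mean of at least 5 CPM, called in every setting, groups not overlapping), the 3 members of each list with the smallest adjusted p among those called in every setting, members marked beforehand in the lists, and the promoters' genes. Lists, members and tests were chosen with earlier results of these data known. Alternatives were DESeq2 1.42.0, its size factors, no filter, 6 libraries, the replicate block and each library left out. Results of a few genes are not reported here.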

Additional observations from a re-analysis of the deposited data

How the results depend on the processing

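The count of 4239 genes with all 9 libraries became 5776 with DESeq2, 4234 with its size factors in edgeR, 3816 with no filter on low counts and 3248 with the 6 TM and TMP libraries alone. It became 6751 (3305 higher and 3446 lower) with those libraries and no TM replicate 2. Leaving out single libraries gave 1550 to 4885 genes, 1067 to 2514 higher and 483 to 2371 lower, the lowest without TMP replicate 1 and the highest without TM replicate 2. Without TMP replicate 2 the counts were 1371 higher and 761 lower, and without TMP replicate 3 they were 1259 and 611. With the replicate number as a block (replicate block), 3032 genes passed, 1746 higher and 1286 lower. The labels do not say whether the numbers pair the samples. Deviations of same-numbered libraries correlated with r = 0.25, 0.28 and 0.06. TM replicate 3 correlated more with TMP replicate 1 (0.25) than with its own number. The other pairs of different numbers had r between -0.30 and -0.01, so pairing was left unsettled. The median for chromosome 14 was -0.70 with DESeq2 and -0.65 to -0.51 without single libraries. Of 130 named genes past the threshold, 122 passed in all 12 alternatives. That share was largely set beforehand, since the rules that named many of them required it. Over all 4239 genes past the threshold, 1376 passed in all 12. The direction turned without TM replicate 2 for 4 named genes, none of which passed with all 9 libraries. Over the fits without single libraries, Fasn ranged from -3.06 to 1.14, Elovl6 from -0.95 to 1.53, Adipoq from -4.40 to 6.14 and the Y-linked Kdm5d from -0.18 to 0.83. With the 6 libraries and no TM replicate 2 these were 1.14, 1.53, 6.13 and -0.18, and Elovl6 stood at 0.15 with the block. The cause of these changes was not tested, beyond the fewer samples in each such fit. Total counts of 16584781 to 21044009 per library limit what can be said of genes near 3 counts.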
